A study of Xenopus tropicalis with 12 samples.

Results

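The gene nr3c2 encodes the mineralocorticoid receptor. It was paired with 1 feature, XLOC_034214, of the 33875 features counted in each brain library. Only 1554 features were paired with a symbol, so others may also hold reads of this gene. The gene was selected on its measured responses to T3 in these same groups, so its levels and fold changes are given below as descriptions with standard errors and no test. The feature was assigned to nr3c2 through the study's own list of genes, which pairs identifiers with symbols. That list carries 2 Ensembl identifiers for it, of which 1 has the symbol nr3c2 and the other has none. The counts of the feature may therefore hold reads of a second gene.

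RNA was sequenced from the microdissected preoptic area, thalamus and hypothalamus, with the pituitary included, of Xenopus tropicalis tadpoles at Nieuwkoop-Faber (NF) stage 54. The 12 libraries formed 4 groups of 3: wild type (WT) given vehicle, WT given T3 (the active thyroid hormone triiodothyronine), and tadpoles homozygous for the thra mt-exon4 mutation given vehicle or T3. T3 was added to the aquarium water at 5 nM for 16 h, and each library pooled tissue from 5 tadpoles. The sample labels give dilute NaOH as the vehicle, while the design text of the series names DMSO. The mutant line (TRαM5) carries a TALEN-made mutation in exon 4 of thra, the gene of thyroid hormone receptor α, predicted to truncate the protein before its DNA-binding domain. Homozygotes came from crosses of heterozygous mutant frogs and were identified by PCR. WT frogs came from a commercial supplier, and the sources used here do not say whether the WT tadpoles were siblings of the mutants, so genotype and family background cannot be told apart.

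The mineralocorticoid receptor is a ligand-activated transcription factor of the steroid receptor family. It binds aldosterone and, with high affinity, the glucocorticoids that serve as stress hormones (corticosterone in frogs). Without hormone it is held by heat shock protein chaperones, and with hormone it enters the nucleus, binds hormone response elements as a dimer and recruits coregulators. In mammals it controls sodium transport in kidney and other epithelia, and in the limbic brain and hypothalamus it takes part in setting the tone of the stress axis. Corticosteroids act together with thyroid hormone during amphibian metamorphosis.

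The 12 libraries held 41012459 to 67603703 expected counts, and 22018 features passed the filter on low counts. No symbol thra was paired with a feature, so the genotype rests on the labels. The neuronal markers snap25 and elavl3 were present in every library (28640 to 49255 and 15742 to 24706 expected counts), as were the hypothalamic neuropeptide genes avp and oxt (2060 to 4252 and 4294 to 11631). elavl3 had log2 fold changes with T3 of 0.23 in WT (adjusted p = 0.051) and -0.19 in the mutant (adjusted p = 0.38) and was lower in the mutant under T3 by 0.26 (adjusted p = 0.043), whereas snap25 had a difference of 0.08 there (adjusted p = 0.45). Of the hypothalamic genes, oxt rose with T3 in WT by 0.58 (edgeR adjusted p = 0.024) and was lower in the mutant under T3 by 0.84 (adjusted p = 0.0071). avp passed in neither comparison (adjusted p = 0.10 and 0.16). Symbols were paired for 2 of 8 neuronal markers, 2 of 9 hypothalamic and preoptic markers and 1 of 8 inner ear markers. None of the pituitary, radial glia, oligodendrocyte, blood, muscle, skin or microglia markers was paired. Only genes that the study had selected as T3-regulated in these WT libraries carried symbols. The changes of the paired markers are therefore descriptions only. The inner ear marker was otop1, an otolith gene, with 73, 122.24 and 126.85 expected counts in the 3 WT T3 libraries and at most 2.02 in each of the other 9. In the group means this gene rose with nr3c2 in WT T3 but not in mutant T3, where nr3c2 was also higher than on vehicle. The part of inner ear tissue in the WT response of nr3c2 was not tested. WT vehicle replicate 3 stood apart from its group: chi-square per degree of freedom was 42 and 31.9 against the other 2 WT vehicle libraries, compared with 7.1 to 22.1 for the remaining pairs of replicates.

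The nr3c2 feature was long (10343 bases) and moderately expressed. In vehicle-treated WT brain it had 866.46, 977.02 and 929.17 expected counts in replicates 1, 2 and 3. After T3 the WT libraries had 2385.95, 1877.03 and 2507.45. The mutant vehicle libraries had 1151.62, 1016.47 and 1339.96, and the mutant T3 libraries 1553.08, 2030.39 and 2004.68. Before scaling for depth, all 3 WT T3 libraries and all 3 mutant T3 libraries were above all 6 vehicle libraries, while the mutant T3 and WT T3 values overlapped. None of the 12 counts was a whole number within 0.005, since the quantification divides reads that match several features. Counts of this size carry a counting error of 2.0 to 3.4% per library, which covers sampling of reads only.

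After scaling to CPM (the count relative to the library's total, adjusted with TMM factors), each T3 group lay apart from all other groups, while the vehicle groups overlapped. WT vehicle libraries lay at 17.23, 17.8 and 19.38 CPM (mean 18.14 ± 1.116, SD, n = 3). WT T3 libraries lay at 50.79, 45.71 and 44.69 CPM (47.06 ± 3.269, n = 3). These groups were separated by 25.31 CPM between the highest vehicle and the lowest T3 library. Mutant vehicle libraries lay at 19.78, 19.05 and 19.94 CPM (19.59 ± 0.4736, n = 3), which overlapped the WT vehicle group. Mutant T3 libraries lay at 30.65, 35.68 and 31.9 CPM (32.75 ± 2.617, n = 3). They were above all 6 vehicle libraries and below all 3 WT T3 libraries. Ordered by level, the groups were thus WT vehicle and mutant vehicle, then mutant T3, then WT T3. The vehicle groups overlapped only through WT vehicle replicate 3 (19.38 CPM), as the other WT vehicle libraries were below all mutant vehicle libraries.

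**Figure D1:**
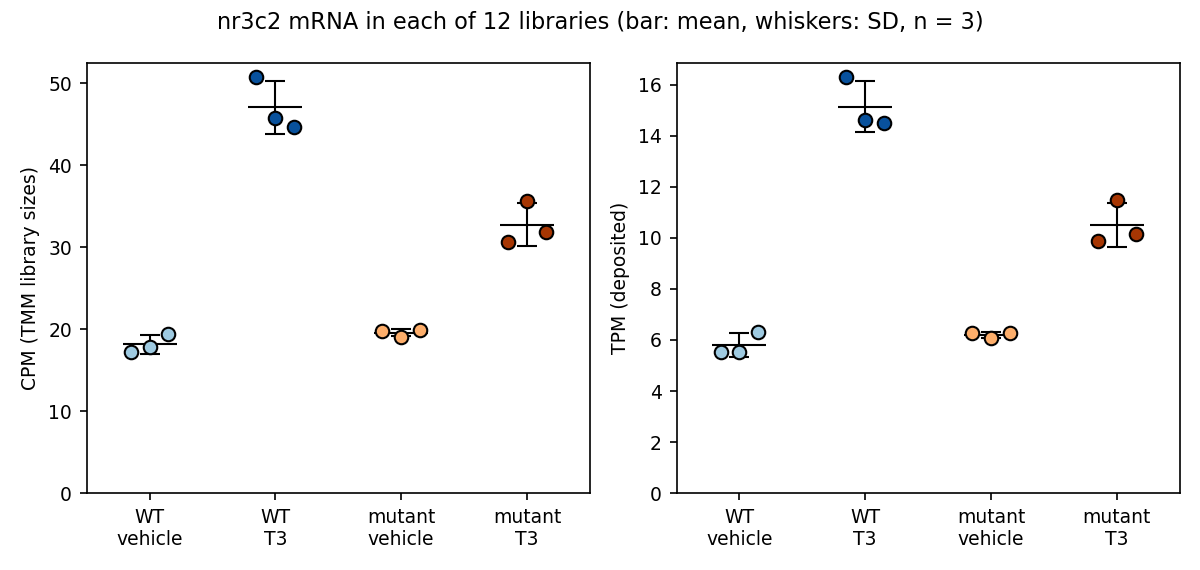
Level of nr3c2 in each of the 12 libraries, in CPM and in TPM, by genotype and treatment. Points are libraries and lines are group means with SD (n = 3). The WT T3 libraries (44.69 to 50.79 CPM) lie above the mutant T3 libraries (30.65 to 35.68 CPM), and both lie above the 6 vehicle libraries, which overlap between genotypes.

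The spread within groups was small. The coefficient of variation of CPM was 6.15% in WT vehicle, 6.95% in WT T3, 7.99% in mutant T3 and 2.42% in mutant vehicle. The mutant vehicle value was below the counting error of single libraries in that group (2.73 to 3.14%), from 3 libraries only. The biological coefficient of variation fitted for nr3c2 was 7.35%, under the 9.47% of the trend at its level. Of 2918 features within 0.5 log2 CPM of nr3c2, 61.2% had a higher dispersion, so the gene lay near the middle of features of its level in replicate spread.

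The authors' TPM values, a relative transcript abundance that also divides by feature length, gave the same order. WT vehicle libraries had 5.52, 5.53 and 6.33 TPM, and WT T3 libraries 16.3, 14.63 and 14.49 TPM. Mutant vehicle libraries had 6.27, 6.07 and 6.26 TPM, and mutant T3 libraries 9.88, 11.49 and 10.14 TPM. Again no T3 library overlapped a vehicle library of its genotype, and no mutant T3 library reached the lowest WT T3 library. Among all features of a library, nr3c2 ranked above 54.6 to 56.1% in WT vehicle, 67.8 to 69.9% in WT T3, 56.6 to 56.9% in mutant vehicle and 62.2 to 64.5% in mutant T3. These shares are of all 33875 features, many of which are unannotated and lowly expressed. In bulk tissue a change in the share of cells that express the gene and a change in its RNA per cell cannot be told apart.

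The first comparison asked how nr3c2 differed with T3 in WT brain. The level was 2.6-fold higher with T3, a log2 fold change of 1.38 (SE 0.079), and 28.93 CPM higher in absolute terms (SE 1.994). Single T3 libraries ranged from 2.31 to 2.95 times single vehicle libraries. This log2 fold change was in the highest 0.808% of 22018 features, whose median was -0.023. Of all tested features, 10.9% passed the threshold (adjusted p under 0.05) in this contrast, and 5.37% of all tested features passed as higher with T3. Of the tested features, 16.0% had all 3 T3 libraries above all 3 vehicle libraries. Because this contrast was among those that brought the gene to attention, nothing is read from its place among them. Without WT vehicle replicate 3, the library that stood apart, the log2 fold change was 1.43, the highest of the 12 values with 1 library left out. The lowest, 1.32, was without WT T3 replicate 1.

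The second comparison asked what remained of that difference in thra mt-exon4 brain. With T3 nr3c2 was 1.67-fold higher, a log2 fold change of 0.74 (SE 0.077), or 13.15 CPM (SE 1.536). Single T3 libraries ranged from 1.54 to 1.87 times single vehicle libraries, so every ratio in the mutant was below every ratio in WT. The log2 fold change was in the highest 2.58% of 22018 features, with a median over all features of 0.003. Since the gene was selected on these responses, nothing is read from that place. In this contrast 0.254% of features passed the threshold and 0.200% passed as higher with T3, and 7.70% had their T3 libraries all above their vehicle libraries. The value depended little on single libraries: 0.67 without mutant T3 replicate 2, which had the highest level of its group, and 0.79 without mutant T3 replicate 1, which had the lowest.

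Without added hormone the genotypes were close. Mutant vehicle brain had 1.08 times the WT level, a log2 difference of 0.11 (SE 0.078), or 1.456 CPM (SE 0.6997), and ratios of single libraries ran from 0.983 to 1.16. The groups overlapped: WT vehicle replicate 3 (19.38 CPM) lay inside the mutant range of 19.05 to 19.94 CPM. Without that library the log2 difference was 0.16. Of all features, 0.577% passed the threshold between the genotypes on vehicle.

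With T3 the mutant level was 0.696 times the WT level, a log2 difference of -0.52 (SE 0.076), or -14.32 CPM (SE 2.418). Ratios of single libraries ran from 0.603 to 0.798. The highest mutant library (35.68 CPM) was below the lowest WT library (44.69 CPM), a separation shown in the same direction by 16.9% of all features, while 6.88% passed the threshold in this contrast. The difference of the 2 responses, mutant minus WT, was -0.63 on the log2 scale (SE 0.109). It was in the lowest 4.31% of 22018 features, a place from which nothing is read, since the gene was selected on these responses. In all, 0.527% of features passed the threshold for a difference of responses. This difference and both responses share the same 12 libraries and are not separate evidence.

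Expressed as a share, the log2 response in the mutant was 53.9% of the WT response (SE 6.42). In CPM the mutant difference was 45.5% of the WT difference and in TPM 46.0%. Over 21 other fits the log2 share ran from 48.6%, without mutant T3 replicate 2, to 57.1%, without mutant T3 replicate 1. Set among the 1182 features that passed as higher with T3 in WT, its WT fold change ranked 67th, and their median share was 19.7%. Set among the 30 that passed as higher in both genotypes, it ranked 16th by WT fold change, 15th by mutant fold change and 17th by share, near the median share of 54.9%. Genes in the second set had to respond in the mutant to enter it, so its higher median follows in part from that choice. nr3c2 is in both sets by the same values on which it was selected, so nothing is read from its ranks.

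**Figure D2:**
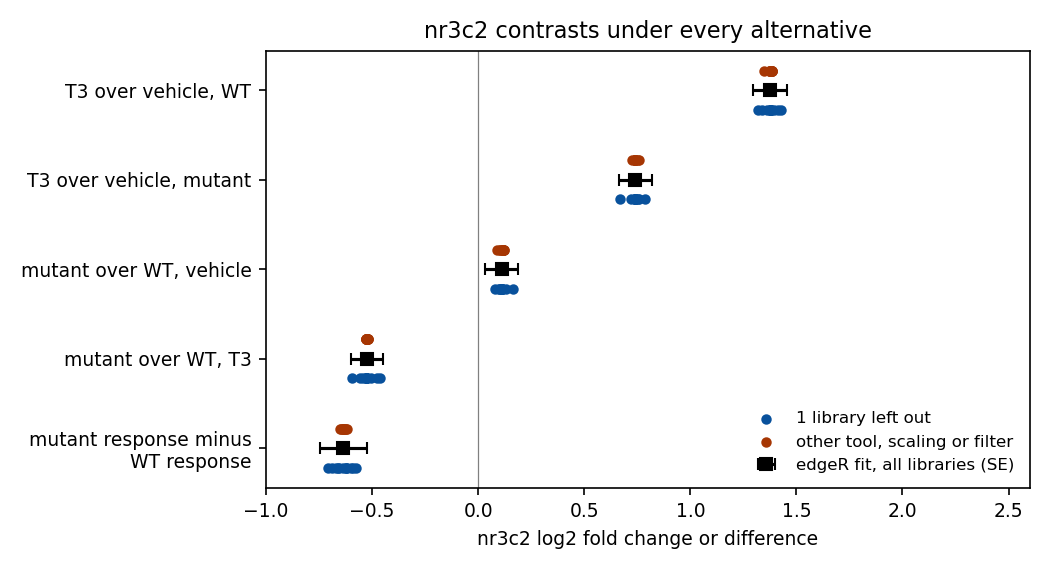
The 5 nr3c2 contrasts under each alternative processing, as log2 fold changes. Each point is 1 fit, except for 1 point per contrast that compares the deposited TPM values. The main value and the fits that leave out 1 library are shown apart. The WT response stays between 1.32 and 1.43 and the mutant response between 0.67 and 0.79.

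The order in which all 6 vehicle libraries lay below all mutant T3 libraries and these below all WT T3 libraries was shown by 95 of 22018 features (0.431%), nr3c2 among them. By mean CPM nr3c2 was 56th of the 95. Among the 22 other genes of the lists described below, dio3, igf2, klf9 and thrb showed it as well. These are all on the list of T3 response genes, chosen as known responders. The study had also picked the listed genes in the same WT libraries, so this count is a description only.

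Of the 5 features whose log2 CPM followed nr3c2 most closely over the 12 libraries, 4 are described here: thibz (Pearson r = 0.982), nudt22 (0.976), bcl6 (0.969) and ikzf2 (0.969). The thibz values are those of XLOC_028082. Another feature with this symbol, XLOC_028061, also showed the order described above, and its values are not given here. thibz encodes a leucine zipper transcription factor induced by thyroid hormone in tadpoles, nudt22 a nudix hydrolase, bcl6 a zinc finger repressor and ikzf2 a zinc finger factor of the Ikaros family. The libraries fall into 4 groups, so r mostly reflects the group means: within groups, after removing each group's mean, r was 0.04 for thibz, 0.44 for nudt22, 0.28 for bcl6 and 0.597 for ikzf2. All 4 shared the stepwise shape, which follows in large part from choosing them by r, but not its size. Their log2 fold changes with T3 in WT and mutant were 6.27 and 3.97 for thibz, 0.65 and 0.32 for nudt22, 1.47 and 0.50 for bcl6, and 0.85 and 0.25 for ikzf2. On vehicle the log2 differences, mutant minus WT, were 0.51 for thibz, 0.11 for nudt22, 0.31 for bcl6 and 0.21 for ikzf2. For nr3c2 the difference was 0.11. Of 22017 other features, 92 had r above 0.9 and 76 below -0.9. The lowest were XLOC_020052 (-0.961), XLOC_003040 (-0.958) and XLOC_025907 (-0.958), none of which was paired with a symbol. With TPM in place of CPM 4 of the 5 leading features were the same, and with Spearman rank correlation 1 of 5, so the exact leading names depend on the measure.

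**Figure D3:**
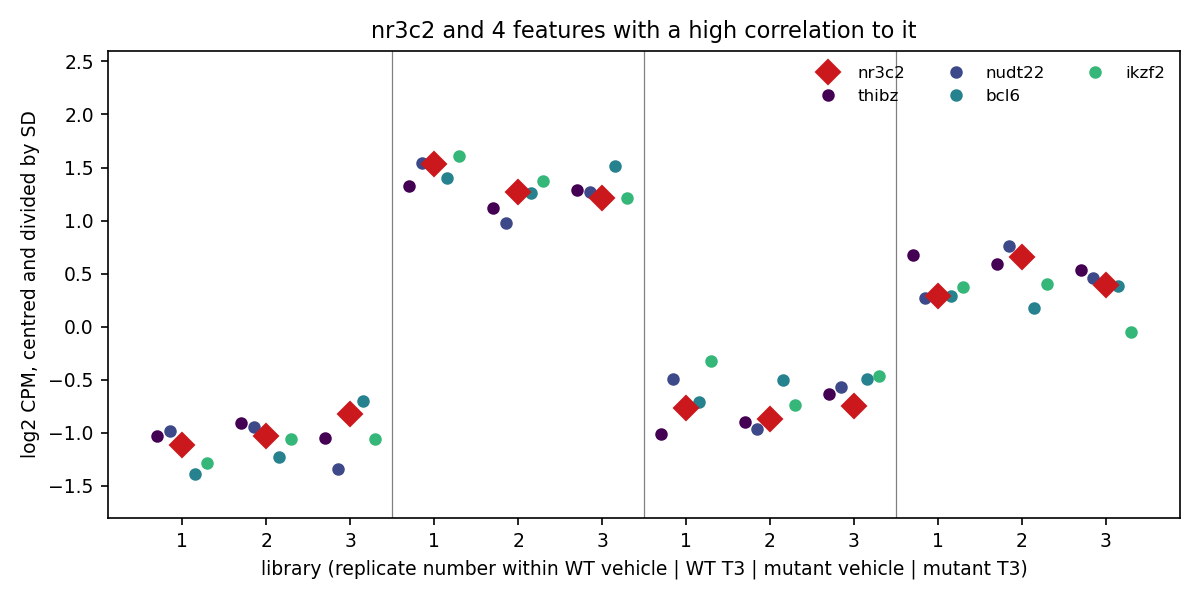
log2 CPM of nr3c2 (diamonds) and 4 of the 5 features with the highest correlation to it (circles), each centred on its mean and divided by its SD, in the 12 libraries by group. All 5 are low in both vehicle groups, highest in WT T3 and between in mutant T3, with Pearson r of 0.969 to 0.982.

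The genes that act with a steroid receptor were then examined, in lists of nuclear receptors, chaperones, coregulators, corticosteroid metabolism, corticosteroid targets, stress axis genes and T3 response genes. Of 85 symbols, 22 besides nr3c2 were paired with a tested feature, and none of 7 genes of corticosteroid metabolism was. Symbols were available only for genes that the study itself had selected as T3-regulated in these WT libraries, and the T3 response genes were chosen as known responders. That choice used the WT vehicle and WT T3 libraries and so enters every contrast in which either group stands. The counts below therefore describe these genes, and nothing is read from their distance to the share of all features printed beside them. In edgeR's quasi-likelihood test with Benjamini-Hochberg adjustment over all 22018 features, 16 of the 22 were higher with T3 in WT and none lower, against 5.37% and 5.53% of all features. Their median log2 fold change was 0.39 (all features -0.023). Without WT T3 replicate 3 the count was 10, while the calls over all features, in either direction, fell from 2399 to 824. In the mutant 5 of 22 were higher and none lower, against 0.200% and 0.0545% of all features, with a median of 0.09 (all features 0.003). Those 5 were thrb, klf9, dio3, igf2 and pim3, which are the whole list of T3 response genes, so this count follows from their choice.

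**Figure D4:**
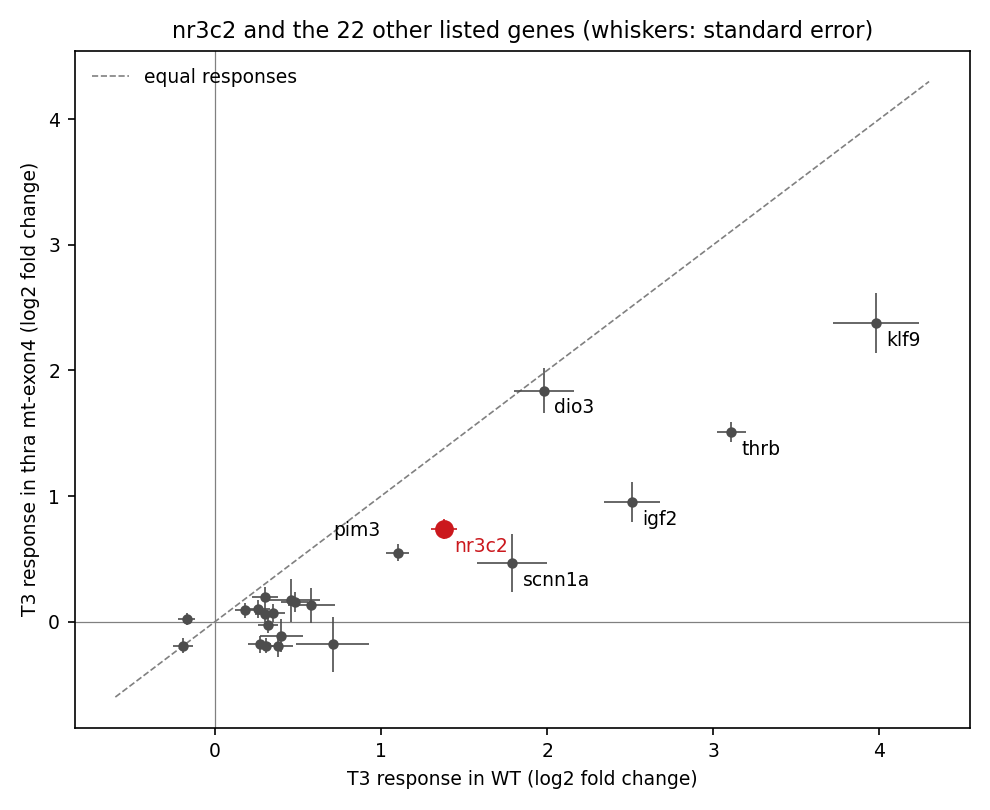
T3 response in WT (horizontal axis) against the response in thra mt-exon4 (vertical axis), as log2 fold changes with standard errors, for nr3c2 and the 22 other listed genes. The dashed line marks equal responses. nr3c2 lies at 1.38 and 0.74, below the line, as do thrb at 3.11 and 1.51 and igf2 at 2.51 and 0.95, whereas dio3 at 1.98 and 1.84 is close to it.

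Among the nuclear receptors, 6 of 26 symbols were matched. thrb, the gene of thyroid hormone receptor β, rose in both genotypes, by 3.11 in WT (SE 0.09, adjusted p = 6.5e-10) and by 1.51 in the mutant (SE 0.08, adjusted p = 2.6e-06) on the log2 scale. Per length, thrb (3.64 to 3.96 TPM) was below nr3c2 (5.52 to 6.33 TPM) in every WT vehicle library. In mutant vehicle libraries thrb (7.47 to 8.72 TPM) was already above nr3c2 (6.07 to 6.27 TPM). With T3 thrb was above nr3c2 in every library, at 29.85 to 35.22 TPM in WT and 21.16 to 24.22 TPM in the mutant. Unlike nr3c2, whose vehicle groups overlapped, thrb was higher in mutant than WT vehicle brain, by 1.06 (SE 0.09, adjusted p = 0.00030). The retinoid receptor genes rara and rxrb, whose products bind retinoic acid and form heterodimers with other receptors, rose in WT by 0.48 (adjusted p = 0.0026) and 0.35 (adjusted p = 0.0086). In the mutant their log2 fold changes were 0.16 (adjusted p = 0.52) and 0.07 (adjusted p = 0.83), and the difference of responses missed the threshold for both (adjusted p = 0.21 and 0.22). The orphan receptor genes nr2f1 and nr2f6 did not pass in either genotype, with WT values of 0.18 (adjusted p = 0.10) and -0.17 (adjusted p = 0.057). The feature paired with nr2f6 was new_exon_scaffold_94_1042, not an XLOC feature as for nr3c2. In every group nr3c2 was below rara, rxrb, nr2f1 and nr2f6 in TPM: over the 12 libraries rara had 14.15 to 21.74, rxrb 44.94 to 60.97, nr2f1 123.96 to 158.7 and nr2f6 16.46 to 20.46 TPM.

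The list of chaperones and cochaperones, which includes cytosolic ones that hold unliganded steroid receptors and hsp90b1 of the endoplasmic reticulum, had small log2 fold changes. Of 7 matched genes of 15, 4 were higher with T3 in WT (5.37% of all features), in genes that the study had picked in the same libraries. They were hspa8 (0.27, adjusted p = 0.028) and hsph1 (0.32, adjusted p = 0.0072), of the Hsp70 and Hsp110 families, the Hsp70-Hsp90 adaptor stip1 (0.38, adjusted p = 0.017) and the Hsp40 cochaperone dnajb1 (0.31, adjusted p = 0.010). In the mutant none passed in either direction, where 0.254% of all features passed. All 7 log2 fold changes were below 0, with a median of -0.18 (all features 0.003). Without mutant T3 replicate 3, 6 of the 7 were below 0. With T3, 5 of 7 (3.18% of all features) were lower in mutant than in WT, in genes that the study had picked through the same WT T3 libraries: hsp90b1 by 0.50, hspa8 by 0.25, hsph1 by 0.28, stip1 by 0.48 and dnajb1 by 0.33, with adjusted p between 0.0085 and 0.048. The count of these calls varied with the libraries kept. It was 0 without WT T3 replicate 3, 1 without mutant T3 replicate 3 and 2 without WT T3 replicate 2. It was 3 without WT T3 replicate 1, mutant T3 replicate 2, mutant vehicle replicate 3 or WT vehicle replicate 2. Without WT T3 replicate 3 the calls over all features, in either direction, fell as well, from 1515 to 293. In that fit all 7 chaperone log2 differences stayed below 0, with a median of -0.32 (-0.33 with all libraries). The count of chaperones higher with T3 in WT likewise ran from 1 to 6 over the alternatives. fkbp4, an immunophilin of the receptor complex, had -0.19 in both genotypes (adjusted p = 0.052 and 0.23), and hspa1b 0.71 in WT (adjusted p = 0.054). The neuronal marker elavl3 had values of the same sign and similar size (0.23 in WT, -0.19 in the mutant). The other matched neuronal marker, snap25, had -0.17 in WT (adjusted p = 0.065) and -0.06 in the mutant (adjusted p = 0.81). The part of cell composition in the chaperone values was not tested. The features of hspa8 and hsph1 each carry a second symbol, so their counts may hold reads of a second gene.

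All 3 matched coregulators, of 12 listed, rose in WT, where 5.37% of all features passed as higher. The study had picked these genes in the same WT libraries, so this count is a description only. The coactivator genes ncoa1 and ncoa3, whose products acetylate histones or recruit acetylases at liganded receptors, rose by 0.26 (adjusted p = 0.029) and 0.30 (adjusted p = 0.027). nrip1, a corepressor gene of liganded receptors, rose by 0.30 (adjusted p = 0.0095). None of the 3 passed in the mutant (0.254% of all features), where their values were 0.10, 0.20 and 0.06. Without WT vehicle replicate 1 or 2, or WT T3 replicate 1 or 3, the count of coregulators that rose in WT was 1.

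Both matched corticosteroid targets of 13 rose in WT, where 5.37% of all features passed as higher. The study had picked both in the same WT libraries, and klf9 is also among the T3 response genes, so this count is a description only. scnn1a encodes the α subunit of the epithelial sodium channel, a mineralocorticoid target in mammalian kidney. It rose by 1.79 (SE 0.21, adjusted p = 0.00037) in WT, from 2.24 to 2.66 TPM on vehicle to 8.20 to 9.19 TPM with T3. In the mutant it had 1.13 to 2.17 TPM on vehicle and 1.68 to 2.63 TPM with T3, ranges that overlap, with a log2 fold change of 0.47 (SE 0.23, adjusted p = 0.54). Under T3 it was lower in the mutant by 1.98 (SE 0.22, adjusted p = 0.00047), while the difference of responses missed the threshold at -1.32 (SE 0.31, adjusted p = 0.096). klf9, a zinc finger factor induced by both corticosteroids and thyroid hormone, rose by 3.98 in WT (SE 0.26, adjusted p = 1.2e-06) and by 2.38 in the mutant (SE 0.24, adjusted p = 0.00079).

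Of the stress axis list, only avp and oxt, the genes of the neurohypophysial hormone precursors, were matched, 2 of 10. oxt rose in WT by 0.58 (SE 0.14, adjusted p = 0.024) and had 0.13 in the mutant (adjusted p = 0.83), and with T3 it was lower in the mutant by 0.84 (adjusted p = 0.0071). The WT call was lost without WT vehicle replicate 3, WT T3 replicate 2 or WT T3 replicate 3. avp did not pass in either genotype, with 0.46 (adjusted p = 0.10) and 0.17 (adjusted p = 0.82).

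The 5 T3 response genes set beside nr3c2 were thrb, klf9, dio3 (the deiodinase that inactivates thyroid hormone), igf2 (an insulin-like growth factor) and pim3 (a serine/threonine kinase). All 5, chosen as known responders, rose in both genotypes (5.37% of all features in WT and 0.200% in the mutant). The rise of igf2 in the mutant (0.95, SE 0.16, adjusted p = 0.039) was lost under 10 of 21 alternatives. The log2 response left in the mutant was 92.9% for dio3, 59.7% for klf9, 50.2% for pim3, 48.6% for thrb and 37.7% for igf2, and nr3c2 (53.9%) lay between klf9 and pim3. On the CPM scale the shares were 66.5, 51.2, 59.9, 50.6 and 18.9% in the same order, and nr3c2 (45.5%) was above igf2 alone. Of these genes, thrb and pim3 were already higher in the mutant on vehicle, the only 2 of the 22 listed genes to pass there, against 0.164% of all features (0.413% passed as lower). The WT vehicle libraries had a part in picking the listed genes, so this count is a description only. pim3 was higher by 0.56 (SE 0.07, adjusted p = 0.0048), a call lost with only the groups compared (adjusted p = 0.062). Without WT vehicle replicate 3, the library that stood apart, klf9 passed as well, at 0.54 (adjusted p = 0.019). For nr3c2 the same difference was 0.11 (SE 0.078), and for klf9, dio3 and igf2 it was 0.86, -0.40 and -0.07 with adjusted p of 0.15, 0.39 and 0.91.

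Under T3 the mutant was lower than WT for 9 of the 22 listed genes and higher for 1, with 3.18% and 3.70% of all features doing so. Since the symbols come from genes picked in the WT T3 libraries, this count is a description only. The median was -0.31 (all features 0.01). Without mutant T3 replicate 3 the count of lower genes was 5. Without WT T3 replicate 3 it was 4, while the calls over all features, in either direction, fell from 1515 to 293. The gene that was higher was nr2f6 (0.22, adjusted p = 0.029), a call lost without WT T3 replicate 1 or 3 or any 1 of the mutant T3 libraries. Its new_exon feature was also absent from the alternative without such features. The response was smaller in the mutant, by the test of the difference, for 4 of 22 (thrb, dnajb1, igf2 and pim3) and larger for none, with 0.354% and 0.173% of all features doing so. klf9 had a difference of -1.61 (SE 0.33) that missed the threshold (adjusted p = 0.051), as it did in 13 of 20 alternatives. The WT response that picked the genes enters the difference of responses as well. The median difference was -0.40 (all features 0.027). The count was 2 without WT T3 replicate 2 or 3, mutant vehicle replicate 1, or mutant T3 replicate 2 or 3, and 9 with DESeq2.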

How the data were processed

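Per the study's methods, single-end 50-base reads were mapped with Bowtie to the X. tropicalis v4.1 genome and quantified with RSEM on a custom gene model. The submitters' notes also name CASAVA 1.8.2, cutadapt and limma. No source states which library ran on which lane. In the deposited tables the authors gave RSEM expected counts, which are estimated and need not be whole, with TPM and FPKM values per feature. All 12 libraries had these values. Deposited FPKM values were read but enter no comparison. The study's spreadsheet was used only to pair identifiers with symbols (1554 tested features). Its fold changes and p-values were not used.

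Expected counts were rounded and fitted in edgeR 4.0.16 (R 4.3.3) with TMM factors, filterByExpr and the quasi-likelihood test, in 1 model of the 4 group means over all 12 libraries. The standard error is the log2 fold change divided by the square root of its F statistic. Adjusted p-values are Benjamini-Hochberg over 22018 features, with a threshold of 0.05. The study's methods name limma without details, and limma-voom (3.58.1) was an alternative. The others were DESeq2 1.42.0, other scaling factors, no filter, only the groups compared and a replicate block. Further alternatives removed the new_exon features or each library in turn. For the nr3c2 contrasts the deposited TPM values were 1 more alternative, compared without a model. The fit was also run on counts simulated from its own dispersion estimates, with changes placed in WT T3 only. That run did not cover a mutant response, and nothing is read from it here. log2 CPM used a prior count of 2, and log2 TPM a pseudocount of 0.1. Named genes were nr3c2, the 5 features with the highest and the 3 with the lowest Pearson r to it, and every matched gene of the lists, except for an item that is not reported here. The gene and the lists were chosen with earlier results of these data known. Replicates are pools of tadpoles, and p-values measure the spread between pools.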

Additional observations from a re-analysis of the deposited data

Results flagged for a closer look

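For 4 of the 22 listed genes the T3 response differed between the genotypes, against 0.527% of all features. The test was the edgeR contrast of mutant response minus WT response over the 12 libraries. The WT response by which the study picked these genes enters this contrast, so the count is a description only. For thrb, the gene of thyroid hormone receptor β, the difference was -1.60 on the log2 scale (SE 0.12, adjusted p = 4.8e-05). igf2, a growth factor gene, differed by -1.56 (SE 0.23, adjusted p = 0.011). The kinase gene pim3 differed by -0.55 (SE 0.10, adjusted p = 0.027), with a higher level in the mutant on vehicle and nearly equal levels with T3 (57.27 to 57.75 TPM in WT and 53.21 to 61.55 TPM in the mutant). Its call was kept in 13 of 20 alternatives and lost without any 1 of the 3 WT T3 libraries, WT vehicle replicate 1, mutant vehicle replicate 1 or mutant T3 replicate 2 or 3. The chaperone gene dnajb1 differed by -0.50 (SE 0.09, adjusted p = 0.029), a call kept in 11 of 20 alternatives. The calls of thrb and igf2 were kept in all 20 alternatives.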

How the results depend on the processing

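All 5 nr3c2 contrasts kept their direction and moved by less than the spread between replicates under every alternative run (22 for each single contrast, 21 for the difference of responses). With 1 library left out they ran from 1.318 to 1.427 (WT response), 0.67 to 0.786 (mutant response), 0.077 to 0.162 (vehicle), -0.595 to -0.465 (T3) and -0.709 to -0.577 (difference of responses). The other alternatives gave 1.349 to 1.387, 0.725 to 0.757, 0.088 to 0.121, -0.531 to -0.517 and -0.649 to -0.619.

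No pairing by replicate number was seen: of 18 same-numbered pairs of libraries, 2 had correlated deviations above 0.1 (range -0.305 to 0.236). Pairs with different numbers ran from -0.409 to 0.448. With 3 libraries per group such correlations are coarse, so this check cannot establish that the samples were unpaired. With the replicate block nr3c2 had 1.376, 0.74, 0.112, -0.524 and -0.636, and the counts of features passing fell from 56 to 30 in the mutant response, from 127 to 76 between genotypes on vehicle and from 116 to 75 for the difference of responses.

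Counts over all features moved more than any nr3c2 value. The mutant response (56) became 89 with no filter on low counts, 396 with DESeq2 and 30 with only the groups compared. Between genotypes on vehicle the count (127) became 530 with DESeq2 and 28 with only the groups compared. Between genotypes with T3 the count (1515) became 2719 with DESeq2 and 3134 with only the groups compared. The difference of responses (116) became 658 with DESeq2. With 1 library left out the counts ran from 824 to 2528 (WT response), 25 to 179, 33 to 504, 293 to 2655 and 38 to 129 in the order given above. The cause was not tested. Of the calls and values of the listed genes under the alternatives, 2158 stayed on the same side of the threshold, 46 crossed to pass, 79 ceased to pass and none reversed.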

Other observations

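The gene next to nr3c2 was looked at after the values were seen. In the RefSeq annotation of assembly UCB_Xtro_10.0, used here for gene order only, the nearest protein-coding neighbours of nr3c2 are dclk2, which encodes a doublecortin-like kinase, and arhgap10. Only dclk2 was paired with a feature (XLOC_040615). Its level was 324 to 338 CPM in the 3 WT vehicle libraries, 362 to 370 in WT T3, 355 to 382 in mutant vehicle and 341 to 355 in mutant T3. Its log2 fold change with T3 was 0.15 in WT (SE 0.05, adjusted p = 0.057 by edgeR) and -0.08 in the mutant (SE 0.05, adjusted p = 0.59), so no stepwise order of the kind seen for nr3c2 was present.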
